A study of Homo sapiens with 12 samples.

Results

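The protein-coding genes of human chromosome 18 were followed in venetoclax resistance of the cell line SUDHL6. Genes were kept if GENCODE places them on chromosome 18 of GRCh38 as protein-coding and if their mean over the 6 SUDHL6 libraries was at least 5 CPM (the count of a gene over the library total, scaled to a common depth). The files list 265 protein-coding genes of this chromosome, and 140 of them were under 5 CPM, not counting genes left out by name. BCL2, PMAIP1, AFG3L2, ME2, ACAA2 and genes whose symbols start with PSM or SLC25 were left out by name, which removed 8 genes, 6 of them at 5 CPM or more. This left 117 members among 60675 listed identifiers, or among 9461 protein-coding genes of all chromosomes that reached the same level. The chromosome was picked because earlier results had shown its genes to differ in SUDHL6, so the counts of members that differ in this line are a description, without a test over the list.

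SUDHL6 and SUDHL16 are human diffuse large B-cell lymphoma (DLBCL) lines that are sensitive to venetoclax (ABT-199), a small molecule that blocks the survival protein BCL2, and SUDHL6 carries translocations of both BCL2 and MYC. Of each line, parental cells were compared with a venetoclax-resistant derivative, obtained by long exposure to rising doses and able to grow at 10 times the original IC50. Each of the 4 groups had 3 RNA-sequencing libraries, named here by their titles: CE-7, CE-8 and CE-9 are parental SUDHL6, CE-10, CE-11 and CE-12 resistant SUDHL6, CE-25, CE-26 and CE-27 parental SUDHL16, and CE-28, CE-29 and CE-30 resistant SUDHL16. Each resistant derivative is a single selected culture, and the sources used here do not say that the libraries came from separate cultures, so p-values measure the spread between libraries, which may be technical.

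Chromosome 18 is one of the gene-poor human chromosomes, and its centromere divides it into a small short arm and a much larger long arm. In lymphoid tumours it is known above all as the home of BCL2, on the long arm, which the common translocation of follicular lymphoma joins to the immunoglobulin heavy chain locus. The long arm also holds SMAD2 and SMAD4, transducers of TGF-beta signals, MALT1, the protease that links antigen receptors to NF-kappaB, and NFATC1, a transcription factor driven by calcium signals. The short arm holds genes of nucleotide synthesis, chromosome segregation and membrane traffic, among them TYMS, NDC80 and VAPA.

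In resistant SUDHL6 cells the members split by chromosome arm. All 31 members of the short arm had a log2 fold change above 0, while 80 of the 86 members of the long arm had one below 0. The median log2 fold change, resistant over parental, was 0.59 on the short arm (a 1.51-fold level) and -0.40 on the long arm (a 0.758-fold level). Genes were called when the Benjamini-Hochberg adjusted p of edgeR's quasi-likelihood test over all genes was under 0.05 and the change was at least 1.5-fold. On that rule 17 members were called higher, all of the short arm, and 26 were called lower, all of the long arm. Over all protein-coding genes at 5 CPM or more, 2.2% were called higher and 3.09% lower in this line. By adjusted p alone, 33 members were higher and 74 lower, where 50.0% of those genes passed in either direction. The 3 resistant libraries all lay above the 3 parental libraries in 33 members and all below them in 78, where 27.7% and 31.9% of those genes did so.

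**Figure D1:**
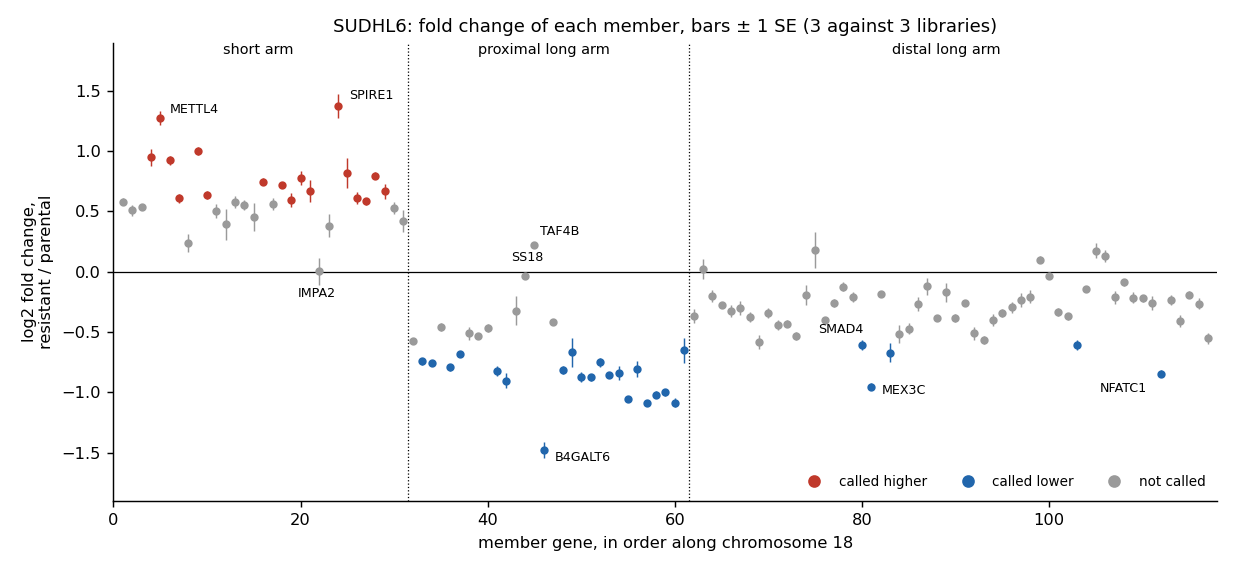
Log2 fold change (resistant over parental) of the 117 members in SUDHL6, in their order along chromosome 18, with bars of 1 SE. Dotted lines part the short arm, the proximal long arm and the distal long arm, with medians of 0.59, -0.78 and -0.28.

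The sequencing depth behind these values was even in SUDHL6 and uneven in SUDHL16. SUDHL6 libraries held 33992784 to 40885665 counts, whereas those of SUDHL16 held 4131927 (CE-26) to 22068221. Protein-coding genes took 55.4% of the counts in CE-26 and 84.3% to 90.2% in the 5 libraries beside it. The 6 B-cell markers examined were present in every library, with 80.2 CPM as the lowest value. Summed over 12 markers of other cell types, SUDHL6 libraries held at most 2.91 CPM. In SUDHL16 that sum was 84.0 to 777 CPM in parental and 14.8 to 85.5 CPM in resistant libraries, and in CE-26 the erythroid markers HBA1 and HBB made up 751 CPM of it. The part of this signal in the SUDHL16 values was not tested.

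Arm medians computed for each library showed the same split in every resistant SUDHL6 library. Each member's CPM was divided by its mean over the 3 parental libraries, and the median of the log2 ratios was taken. On the short arm this median was 0.59 in CE-10, 0.60 in CE-11 and 0.58 in CE-12. On the long arm it was -0.40 in CE-10, -0.39 in CE-11 and -0.42 in CE-12. The parental libraries lay within 0.01 of 0 on both arms, so the arms separated the groups in all 6 libraries. Members took 1.002% to 1.009% of all counts in parental libraries and 0.839% to 0.845% in resistant libraries.

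**Figure D2:**
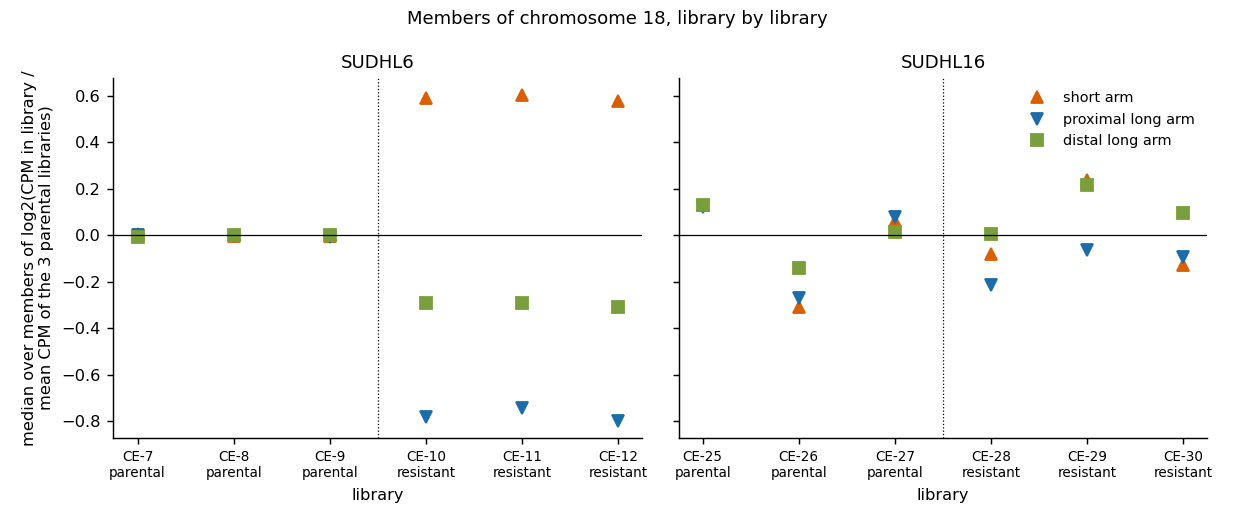
Median over members of log2(CPM in a library over the mean CPM of the 3 parental libraries of its line), for each of the 12 libraries and 3 stretches of chromosome 18. In SUDHL6 the resistant libraries lie near 0.59, -0.78 and -0.29, whereas in SUDHL16 the short-arm medians of parental libraries (-0.31 to 0.13) and resistant libraries (-0.13 to 0.24) overlap.

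The long arm did not move as a single block. With 38 Mb as a boundary chosen after the values were seen, the 30 members of the proximal long arm, from 20 to 38 Mb, had a median log2 fold change of -0.78 (a 0.584-fold level). The 56 members of the distal long arm, beyond 38 Mb, had a median of -0.28 (a 0.821-fold level). Of the 26 members called lower, 21 were in the proximal stretch and 5 in the distal stretch, the latter being SMAD4, MEX3C, POLI, CYB5A and NFATC1. Within windows of 10 Mb the medians were 0.58 and 0.61 for the first 20 Mb, then -0.55 and -0.86, then -0.34, -0.39, -0.24 and -0.23 up to 80 Mb, and -0.26 for the last members. All 16 members of the window from 30 to 40 Mb were lower, 15 of them by the call.

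The step between the arms fell between neighbouring members. The last member of the short arm, the zinc finger gene ZNF519, had a log2 fold change of 0.42 ± 0.0905 (SE). The next member, ROCK1 on the long arm, which encodes a kinase of the actin cytoskeleton, had -0.58 ± 0.0225. No such step stood at 38 Mb, where KIAA1328 had -0.65 ± 0.103 and the next member, PIK3C3, the lipid kinase that starts autophagosomes, had -0.37 ± 0.0572. KIAA1328 was under 5 CPM in resistant cells and met the rule through the parental libraries. Of the 116 neighbouring pairs along the chromosome, 105 had log2 fold changes of the same sign, with a median difference of 0.18. This sign count largely restates the split by arm, and no such count is given for other chromosomes.

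Within a stretch the members still differed by more than their errors. The SD over members was 0.271 on the short arm, 0.328 on the proximal and 0.224 on the distal long arm, whereas the median SE of a member was 0.0511, 0.0311 and 0.0422. The log2 fold change followed neither level nor length closely. Spearman's rho with mean CPM was 0.239, 0.127 and -0.0856 in these stretches, and with exonic length 0.107, -0.16 and -0.0537, as a description across genes of the same libraries.

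Chromosome 18 stood at both ends of the genome-wide range. Protein-coding genes at 5 CPM or more on the other chromosomes had a median log2 fold change of -0.01, and chromosome medians ran from -0.10 on chromosome 13 to 0.05 on chromosome 19. In 284 windows of 10 Mb with at least 8 such genes, the 2 highest medians were the windows of the short arm, 0.65 and 0.58, in which the left-out genes AFG3L2 and PSMG2 were counted too. The next highest was 0.26, on chromosome 2. The window from 30 to 40 Mb of chromosome 18 had the lowest median, -0.86, followed by windows on chromosomes X (-0.74) and 13 (-0.72).

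**Figure D3:**
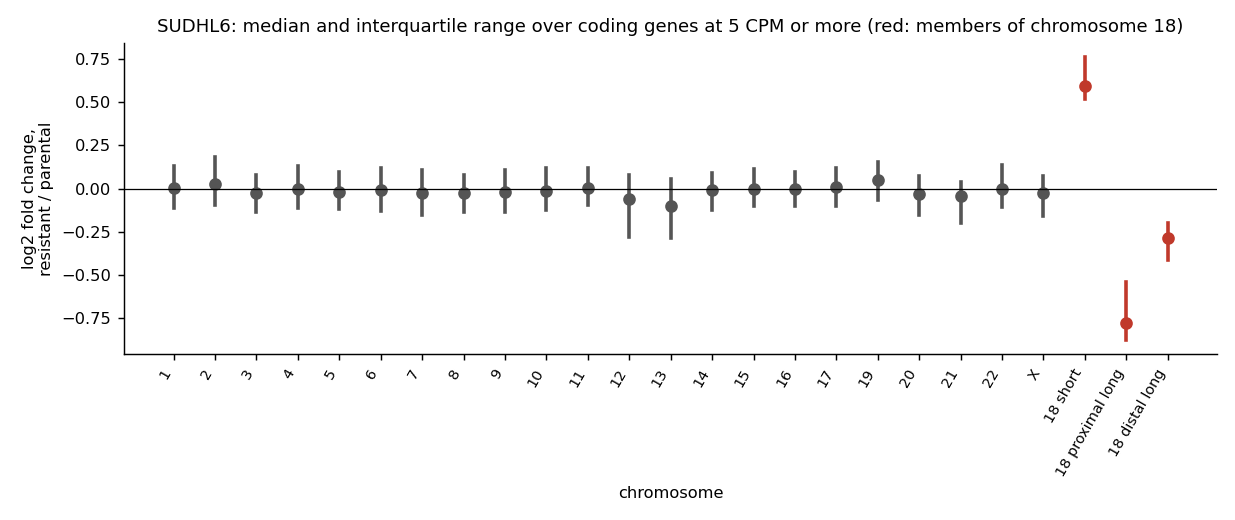
Median (point) and interquartile range (line) of the log2 fold change in SUDHL6 over protein-coding genes at 5 CPM or more, by chromosome, with the members of chromosome 18 in 3 stretches in red. The interquartile range of the short-arm members was 0.52 to 0.76, while medians of the other chromosomes ran from -0.10 to 0.05.

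Several members lie head to head, with annotated starts on opposite strands no more than 1000 bases apart. The members formed 9 such pairs, and in all 9 both genes had the same sign in SUDHL6, with a median difference of 0.14 between partners and a largest of 0.44. This is close to the 105 of 116 neighbouring pairs of any orientation that shared a sign, with a median difference of 0.18. The starts overlap in FAM210A and RNMT, in TPGS2 and KIAA1328, and in TXNL1 and WDR7. Whether partners share a promoter was not tested. The stretches between the annotated starts of 3 pairs are printed because they sit in the short arm, the proximal and the distal long arm and show how close together the partners start. Letters are from GRCh38, plus strand, with motif matches in capitals.

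METTL4 and NDC80, chr18:2571510-2571556: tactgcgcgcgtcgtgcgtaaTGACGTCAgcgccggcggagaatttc
SLC39A6 and ELP2, chr18:36129386-36129443: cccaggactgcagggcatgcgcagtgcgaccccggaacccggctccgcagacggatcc
ATP5F1A and HAUS1, chr18:46104335-46104377: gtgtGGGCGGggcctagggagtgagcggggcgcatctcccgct

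The METTL4 and NDC80 stretch holds 47 bases, and its capitals mark a TGACGTCA, the motif of cyclic AMP response elements. Its genes had log2 fold changes of 1.28 and 0.92. The 58 bases between SLC39A6 and ELP2 held none of the motifs searched, and these genes had -1.02 and -1.001. The 43 bases between ATP5F1A and HAUS1 hold a GGGCGG, a motif of SP-family factors, and these genes had -0.27 and -0.32.

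Promoters of the members held GGGCGG and CCAAT about as often as those of expressed genes. RefSeq promoters on GRCh38 were found for 98 of the 117 members, and the 250 bases before each start were searched on both strands, with overlapping matches allowed. GGGCGG was found in 71.4% of these members (63.0% on the short arm and 74.6% on the long arm), in 68.9% of protein-coding genes at 5 CPM or more and in 42.3% of all 27305 promoters. CCAAT was found in 33.7% of members, 36.8% of those genes and 33.0% of all promoters, and TATAAA in 2.04%, 4.73% and 11.1%. TGACGTCA, added to the search after it was seen in the METTL4 and NDC80 stretch, was found in 10.2% of members, 3.24% of those genes and 1.77% of all promoters. Because that motif was picked from a pair of members, its higher share among them is no test. A match is only a match of letters.

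The 8 most raised members of SUDHL6 were SPIRE1, METTL4, MYL12A, ENOSF1, NDC80, CEP76, CEP192 and CHMP1B, all of the short arm. SPIRE1 (chr18:12446512-12658107), an actin nucleator that moves vesicles, had 3.35, 3.13 and 3.07 CPM in parental and 8.57, 8.10 and 8.09 CPM in resistant libraries. The lowest resistant library thus lay above every parental library, although the parental mean of 3.18 ± 0.146 CPM (SD, n = 3) was itself under the 5 CPM of the rule. Its log2 fold change was 1.38 ± 0.101 (SE), with an adjusted p of 3.53e-07 by edgeR. SPIRE1 is among the members whose exons overlap those of another gene. Its span meets those of PSMG2 (mean 28.8 CPM in parental and 47.1 CPM in resistant libraries) and the non-coding ENSG00000267199 (5.07 and 6.22 CPM). Reads in the overlaps could not be assigned with certainty.

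METTL4 (chr18:2537525-2571509), an adenine methyltransferase, had 14.1, 14.8 and 14.8 CPM in parental and 33.8, 35.5 and 36.5 CPM in resistant libraries. The groups were far apart, with a log2 fold change of 1.28 ± 0.0559 and an adjusted p of 3.42e-09 in the quasi-likelihood test. Its head-to-head partner NDC80 (chr18:2571557-2616635), which anchors kinetochores to spindle microtubules, had 39.6, 37.6 and 35.9 CPM in parental and 70.9, 70.2 and 73.1 CPM in resistant libraries. NDC80 did not overlap between groups either, and its log2 fold change was 0.92 ± 0.0381 (adjusted p 2e-09).

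MYL12A (chr18:3247481-3256236), a regulatory light chain of non-muscle myosin, had 62.5, 58.0 and 60.1 CPM in parental and 122, 119 and 120 CPM in resistant libraries. It came close to a doubling in every resistant library, with a log2 fold change of 1.003 ± 0.0306 (adjusted p 1.47e-10 by edgeR). The neighbouring paralogue MYL12B, whose product differs from it little, had a log2 fold change of 0.63, and reads shared between the copies could be split between them.

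ENOSF1 (chr18:670318-712662), a mitochondrial member of the enolase superfamily, had 9.14, 9.30 and 9.51 CPM in parental and 18.7, 18.05 and 17.2 CPM in resistant libraries. It was called, with a log2 fold change of 0.95 ± 0.0679 (adjusted p 2.77e-07 by edgeR). Its exons overlap those of TYMS on the opposite strand, and without a known strand setting their reads cannot be told apart where they overlap. TYMS, thymidylate synthase, rose from 128 ± 0.802 to 186 ± 1.89 CPM (SD, n = 3), a log2 fold change of 0.54 that did not reach 1.5-fold.

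The other raised members of this group act in the centrosome and in membrane scission. CEP192, a scaffold of the pericentriolar material, had 73.2, 70.6 and 72.4 CPM in parental and 124, 123 and 129 CPM in resistant libraries (log2 fold change 0.80 ± 0.029). CEP76, which limits centriole duplication, was much lower, at 6.43, 4.99 and 7.10 CPM against 11.3, 11.7 and 9.72 CPM (0.82 ± 0.124), and its exons overlap those of the left-out gene PSMG2. CHMP1B, a subunit of the membrane-cutting ESCRT-III complex, had 20.9, 18.6 and 20.97 CPM against 35.4, 33.7 and 34.4 CPM (0.78 ± 0.0581). In none of the 3 genes did a resistant library fall as low as a parental library.

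The 8 most lowered members were B4GALT6, RPRD1A, TPGS2, GALNT1, SLC39A6, ELP2, MEX3C and TTC39C, of which MEX3C alone lay outside the proximal long arm. B4GALT6 (chr18:31622246-31685836), which makes lactosylceramide, had 35.7, 33.0 and 31.1 CPM in parental and 11.4, 11.8 and 12.6 CPM in resistant libraries. It stood below the rest of its stretch, with a log2 fold change of -1.48 ± 0.0682 (adjusted p 5.6e-09 by edgeR). A non-coding gene whose exon overlaps its first exon on the opposite strand, ENSG00000259985, had a log2 fold change of -1.96 ± 0.3, so reads of the pair could not be assigned with certainty.

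RPRD1A (chr18:35984387-36067576), which binds the tail of RNA polymerase II, had 160, 158 and 156 CPM in parental and 74.9, 73.6 and 74.2 CPM in resistant libraries (log2 fold change -1.09 ± 0.0243, adjusted p 1.28e-11 by edgeR). TPGS2, a subunit of the tubulin polyglutamylase complex, had 117, 118 and 126 CPM against 53.9, 57.8 and 58.2 CPM (-1.09 ± 0.0374). GALNT1, which starts mucin-type O-glycosylation, had 114, 115 and 112 CPM against 55.2, 53.4 and 55.5 CPM (-1.06 ± 0.0274). In each of these genes the highest resistant library was far below the lowest parental library.

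SLC39A6 (chr18:36108531-36129385), a zinc importer, had 105, 108 and 107 CPM in parental and 52.0, 51.6 and 54.5 CPM in resistant libraries (log2 fold change -1.02 ± 0.0297). ELP2, a subunit of the Elongator complex that modifies transfer RNA, starts 59 bases from it on the opposite strand. ELP2 had 136, 140 and 136 CPM against 67.3, 68.7 and 69.7 CPM (-1.001 ± 0.027). TTC39C had 29.9, 28.2 and 26.7 CPM against 15.7, 15.1 and 14.5 CPM (-0.90 ± 0.0632). The parental and resistant libraries did not overlap in any of them.

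MEX3C (chr18:51174550-51218333), an RNA-binding ubiquitin ligase, stood apart on the distal long arm. It had 98.1, 99.1 and 97.7 CPM in parental and 49.8, 50.8 and 51.7 CPM in resistant libraries, a log2 fold change of -0.95 ± 0.0271 (adjusted p 8.74e-11 by edgeR). Its neighbours SMAD4 and MBD2, a reader of methylated DNA, had -0.61 and -0.19.

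The 5 members with the highest CPM, which is not corrected for gene length, were all on the long arm, and none was called. RPL17, a protein of the large ribosomal subunit, had 1214, 1270 and 1240 CPM in parental and 939, 934 and 948 CPM in resistant libraries (log2 fold change -0.40 ± 0.017). ATP5F1A, the alpha subunit of ATP synthase, had 682, 680 and 693 CPM against 569, 566 and 566 CPM (-0.27 ± 0.0154). ROCK1 had 324, 326 and 320 CPM against 214, 223 and 213 CPM, and its log2 fold change of -0.58 fell just short of 1.5-fold. In these 3 genes every resistant library was below every parental library.

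CNDP2, a cytosolic dipeptidase, had 294, 289 and 288 CPM in parental and 267, 260 and 261 CPM in resistant libraries (log2 fold change -0.14 ± 0.02). SS18, a subunit of the BAF chromatin remodelling complex, had 289, 290 and 288 CPM against 286, 284 and 279 CPM. SS18 thus differed little although it lies in the proximal stretch, with a log2 fold change of -0.03 ± 0.019 and an adjusted p of 0.223.

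A few members went against their stretch. On the short arm IMPA2, an inositol monophosphatase, had 5.29, 4.87 and 5.24 CPM in parental and 5.49, 4.61 and 5.34 CPM in resistant libraries, with overlapping groups and a log2 fold change of 0.00 ± 0.111. On the proximal long arm TAF4B, a subunit of the general transcription factor TFIID that is prominent in B cells, had 94.6, 93.2 and 92.0 CPM against 107, 109 and 109 CPM. TAF4B was thus higher in all 3 resistant libraries, by 0.22 ± 0.0258 on the log2 scale (adjusted p 2.46e-05 by edgeR), and it is the neighbour of SS18.

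On the distal long arm 2 further members passed the adjusted p in the upward direction. VPS4B, the ATPase that takes ESCRT-III apart, had 98.7, 102 and 95.4 CPM in parental and 106, 107 and 105 CPM in resistant libraries (log2 fold change 0.10 ± 0.0291). ZNF407, a zinc finger gene, had 25.3, 29.4 and 28.6 CPM against 31.8, 31.5 and 30.7 CPM (0.17 ± 0.0593). Both differences are small beside those of their arm. The remaining long-arm members above 0 were PTGR3 (0.13), SETBP1 (0.02) and the read-through gene RPL17-C18orf32 (0.18), which shares exons with RPL17 and C18orf32, and none of these passed the adjusted p.

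The members were also grouped by role, with lists that hold 93 of the 117. Counts in a list are to be read beside those of all members, of which 17 were called higher and 26 lower. By adjusted p alone 33 were higher and 74 lower, where 50.0% of coding genes at 5 CPM or more passed. In every list the short-arm members had log2 fold changes above 0 and most long-arm members had them below 0, so a list's direction followed its makeup by arm.

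**Figure D4:**
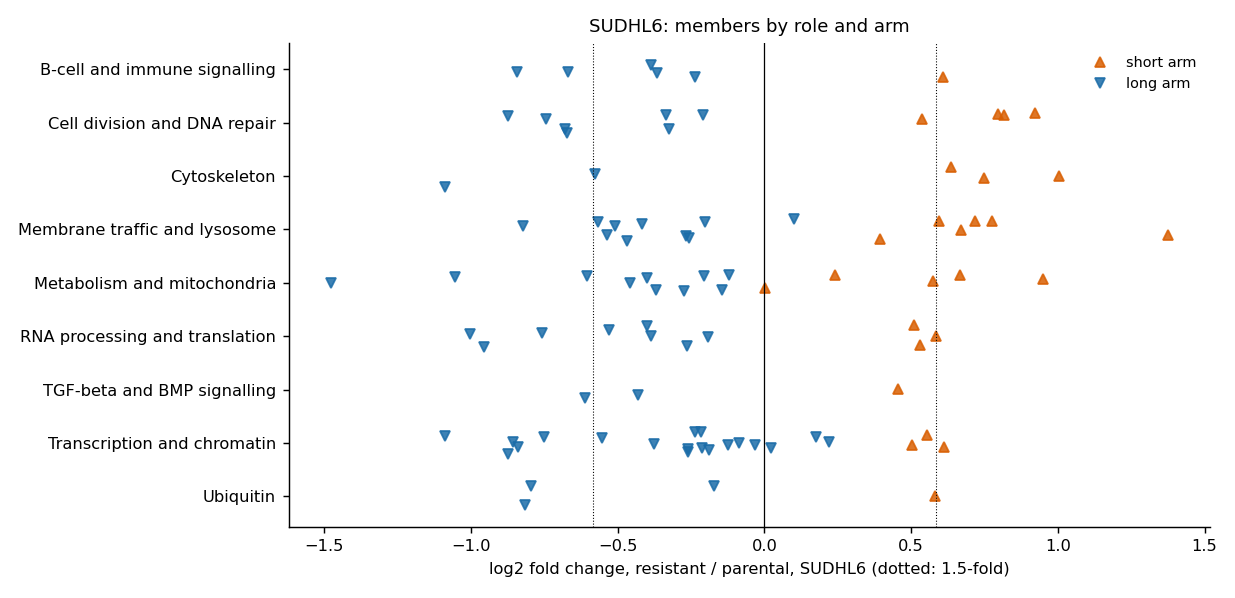
Log2 fold change (resistant over parental) in SUDHL6 of the 93 members with a listed role, 1 row per role, with upward triangles for the short arm and downward triangles for the long arm and dotted lines at 1.5-fold. Short-arm members lie to the right of 0 in every row, from 0.00 for IMPA2 to 1.38 for SPIRE1.

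Of the TGF-beta and BMP pathway, 3 genes were members. SMAD4, the partner shared by all receptor-activated SMAD proteins, had 71.3, 76.0 and 72.4 CPM in parental and 48.2, 50.4 and 45.2 CPM in resistant libraries, and was called lower (log2 fold change -0.61 ± 0.0408, adjusted p 1.52e-07 by edgeR). SMAD2, which the TGF-beta receptor phosphorylates, had 106, 106 and 108 CPM against 78.2, 81.7 and 78.6 CPM (-0.43 ± 0.0274, adjusted p 9.39e-08). TWSG1, a secreted protein that binds BMP ligands and lies on the short arm, was low, at 4.82, 4.13 and 4.35 CPM against 5.44, 6.44 and 6.36 CPM (0.46 ± 0.114). The groups did not overlap in any of the 3, but the receptor-activated and shared SMAD were lower and the ligand-binding protein higher.

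Of 6 members in B-cell and immune signalling, 1 was called higher and 2 lower, and all 6 passed the adjusted p, as most members did. NFATC1, the calcium-regulated transcription factor, had 63.7, 63.6 and 63.6 CPM in parental and 35.4, 35.4 and 35.6 CPM in resistant libraries, a log2 fold change of -0.84 ± 0.0304 (adjusted p 5.89e-10 by edgeR). KLHL14, which restrains B-cell receptor signalling, had 7.90, 8.65 and 7.59 CPM against 5.64, 4.21 and 5.34 CPM (-0.67 ± 0.12). PTPN2, a phosphatase of JAK and STAT proteins on the short arm, had 24.7, 23.4 and 23.8 CPM against 36.3, 37.8 and 35.4 CPM (0.61 ± 0.0492). The groups lay apart in all 3 genes. MALT1 had 56.8, 58.5 and 56.7 CPM against 43.4, 45.7 and 42.6 CPM (-0.39 ± 0.0351), and PIK3C3 (-0.37) and PHLPP1 (-0.24), which dephosphorylates AKT, were lower by adjusted p without reaching 1.5-fold.

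The 11 members in cell division and DNA repair held 3 called higher and 4 called lower. All 11 passed the adjusted p, as most members did. The 4 on the short arm, NDC80, CEP76, CEP192 and TYMS, had a median log2 fold change of 0.81. The 7 on the long arm had a median of -0.67. Those called lower were ESCO1 (-0.74), which acetylates cohesin, MAPRE2 (-0.87), a microtubule end-binding protein, RBBP8 (-0.68), which starts the resection of broken DNA ends, and POLI (-0.67), a polymerase that copies past damaged bases. HAUS1 (-0.32), SKA1 (-0.21) and RTTN (-0.34), of the spindle and centriole, were lower by adjusted p alone.

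Membrane traffic and lysosome genes held 5 members called higher and 1 called lower of 16. Those higher were SPIRE1, CHMP1B, VAPA (0.72), which tethers the endoplasmic reticulum to other membranes, MPPE1 (0.67) and NAPG (0.59), a soluble NSF attachment protein. NPC1 (-0.82), which exports cholesterol from lysosomes, was called lower. LMAN1 (-0.57), a cargo receptor between endoplasmic reticulum and Golgi, DYM (-0.54) and SEC11C (-0.51), a subunit of the signal peptidase, passed the adjusted p only. Of 5 cytoskeleton genes 3 were called higher, MYL12A and MYL12B among them, and TPGS2 was called lower.

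Transcription and chromatin genes were the largest list, with 22 members, 1 called higher and 5 lower. SMCHD1 (0.61), which keeps the inactive X chromosome silent, was higher. The members called lower were RPRD1A and 4 neighbours of the proximal long arm, the zinc finger genes ZNF397 (-0.87), ZSCAN30 (-0.75) and ZNF24 (-0.86) and the INO80 subunit INO80C (-0.84), of which ZNF397 and ZSCAN30 overlap in their exons on opposite strands. Among RNA processing and translation genes, 1 of 11 was called higher and 3 lower, with SEH1L (0.59), a nuclear pore subunit, against MEX3C, ELP2 and SNRPD1 (-0.76), a core protein of the spliceosome.

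Metabolism and mitochondria genes held 2 members called higher and 3 lower of 15. ENOSF1 and FAM210A (0.67), a mitochondrial membrane protein, were higher, whereas B4GALT6, GALNT1 and CYB5A (-0.61), an electron donor of lipid synthesis, were lower. NDUFV2 (0.58), a core subunit of respiratory complex I, and ATP5F1A (-0.27), of complex V, lie on different arms and had opposite signs. Of the 4 ubiquitin genes MIB1 (-0.79), a ligase that acts on Notch ligands, and RNF138 (-0.82), a ligase of DNA repair, were called lower. USP14 (0.58), a deubiquitinase of the proteasome, is on the short arm and passed the adjusted p only.

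Of the 6 members near BCL2, 5 were lower by adjusted p without reaching 1.5-fold, and VPS4B was higher by adjusted p. Within 1 Mb of BCL2, PIGN had a log2 fold change of -0.40, RELCH -0.34, ZCCHC2 -0.30, PHLPP1 -0.24, KDSR -0.21 and VPS4B 0.10. BCL2 itself, left out of the list, had 363.4 ± 2.63 CPM in parental and 318.5 ± 1.06 CPM in resistant SUDHL6 (SD, n = 3), a log2 fold change of -0.19. Of the genes left out by name, the others at 5 CPM or more had 0.65 for AFG3L2 and 0.71 for PSMG2 on the short arm, and -0.45 for PMAIP1, -0.58 for ACAA2 and -0.15 for ME2 on the long arm. PSMA8 and SLC25A52 were too low in SUDHL6 to be tested.

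At the 5 CPM limit the 3 members just inside were IMPA2 (5.13 CPM, log2 fold change 0.00), TWSG1 (5.25 CPM, 0.46) and ZNF521 (5.37 CPM, -0.32). TWSG1, SPIRE1, ZNF521 and KIAA1328 had a mean under 5 CPM in 1 of the groups and so met the rule through the group in which they were higher. The 3 genes just outside were LDLRAD4 (4.56 CPM, -0.27), which lies on the short arm, CCDC102B (4.23 CPM, -0.15) and ELAC1 (3.76 CPM, -0.30).

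Genes of chromosome 18 that the rule did not take offered a view of the same contrast outside the list. Of 33 short-arm coding genes under 5 CPM, 6 had enough counts to be tested, 4 of them called higher, with a median log2 fold change of 0.98. They were MYOM1 (1.41), TGIF1 (1.11), a repressor of TGF-beta targets, MTCL1 (1.35) and GNAL (0.84). Of 21 non-coding short-arm genes tested, 5 were called higher and the median was 0.51. Of 46 non-coding long-arm genes tested, 10 were called lower and the median was -0.38. Genes this low can pass the filter on low counts through the group in which they are higher. ENSG00000266783, called higher on the short arm, did so, with 6, 4 and 5 parental and 14, 16 and 12 resistant counts. Over all genes tested in SUDHL6, 4.31% were called higher and 4.65% lower.

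Among these genes ROCK1P1 was chosen after its values were seen, because it is a partial copy of ROCK1 that lies on the short arm. It had 193, 202 and 238 counts in parental and 162, 163 and 153 counts in resistant libraries, with a log2 fold change of -0.51 ± 0.103 (adjusted p 0.00169 by edgeR). It thus went with ROCK1 (-0.58) and not with its arm, and reads shared between near-identical copies could be assigned to either.

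The 28 long-arm coding genes under 5 CPM that were tested were less uniform, with 3 called higher, 7 called lower and a median of -0.04. The widest changes of the chromosome were here, in genes named after their values were seen. NOL4 had 179, 186 and 213 counts in parental libraries and 0 in each resistant library, which with a floor of 3 counts per library makes it at least 64.5-fold lower. CTIF, which acts in nonsense-mediated decay, had 6, 7 and 2 counts in parental and 212, 170 and 136 counts in resistant libraries (log2 fold change 4.96 ± 0.3). TCF4, a transcription factor of germinal centre and plasmacytoid cells, had 187, 186 and 201 counts against 58, 66 and 31 counts (-2.01 ± 0.19). Parental and resistant libraries did not overlap in these 3 genes, which restates how they were picked. NOL4 and CTIF had enough counts to be tested only through the group in which they were higher.

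In SUDHL16 the same genes showed no split by arm. Of the 117 members, 115 passed the filter on low counts, all but ZNF521 and SETBP1. Their median log2 fold change was 0.03 on the short arm and 0.07 on the long arm, and -0.10 and 0.11 on the proximal and distal long arm, beside 0.06 over all protein-coding genes at the same level. One member was called higher and 1 lower, where 3.75% and 1.83% of those coding genes were called. At an unadjusted p under 0.05 by edgeR there were 12 members in either direction, beside 1883 of 9230 coding genes. DESeq2 called 3 members higher and 5 lower. Its share over all coding genes is not given, so the edgeR shares above cannot be set beside these counts. The median SE of a member was 0.284, against 0.0413 in SUDHL6, so changes of the size seen in SUDHL6 were mostly not detectable for single genes in SUDHL16.

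**Figure D5:**
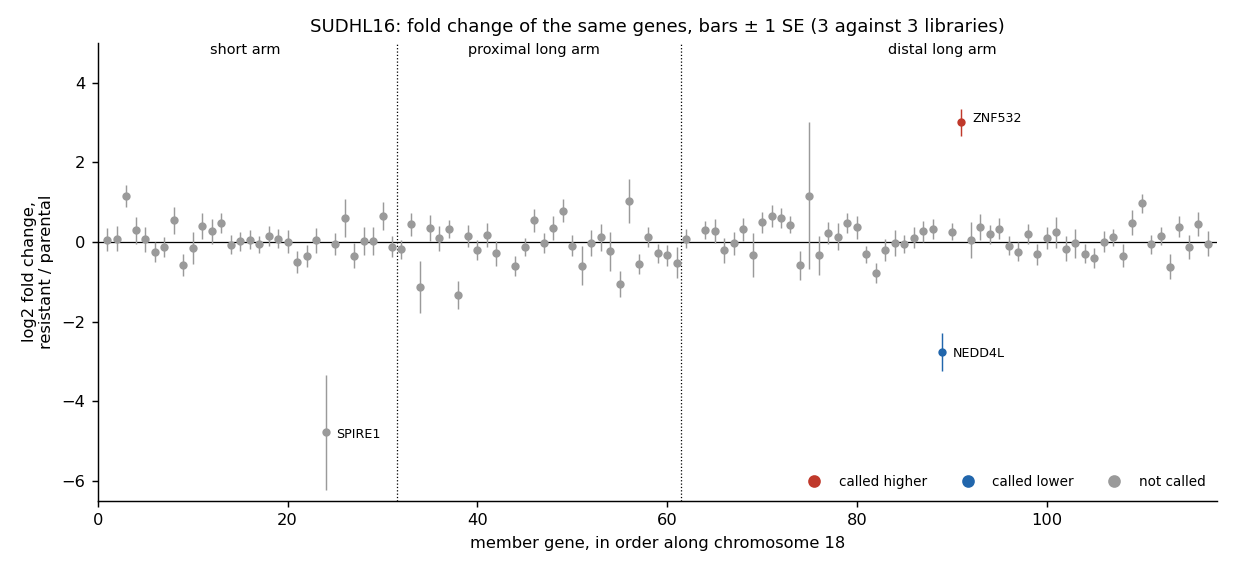
Log2 fold change (resistant over parental) of the 115 tested members in SUDHL16, in the order and stretches of the SUDHL6 plot, with bars of 1 SE and a wider axis. ZNF532 (3.0001) and NEDD4L (-2.76) were called. The lowest point, SPIRE1 (-4.78), was not called and rests on very few counts. The quartiles over all tested members were -0.23 and 0.31.

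ZNF532, a zinc finger gene, had 6.23, 9.30 and 3.91 CPM in parental and 46.6, 47.9 and 54.0 CPM in resistant SUDHL16 libraries. All 3 resistant libraries were far above, with a log2 fold change of 3.0001 ± 0.34 and an adjusted p of 0.00231 by edgeR, while in SUDHL6 it had -0.26. NEDD4L, a ubiquitin ligase of membrane channels, had 16.8, 47.5 and 18.2 CPM in parental and 3.68, 3.39 and 4.93 CPM in resistant libraries, a log2 fold change of -2.76 ± 0.48 (adjusted p 0.0146). Its highest parental value came from CE-26, without which the log2 fold change was -2.12 and the gene was still called. Without CE-28, CE-29 or CE-30 it was not called, with adjusted p up to 0.0914 by edgeR.

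The next 4 members by adjusted p did not pass it in SUDHL16. TYMS had 66.0, 43.4 and 71.4 CPM in parental and 140, 154 and 107 CPM in resistant libraries (log2 fold change 1.14 ± 0.27, adjusted p 0.0509 by edgeR). MBP, myelin basic protein, had 26.01, 27.9 and 27.3 CPM against 40.5, 54.5 and 63.5 CPM (0.97 ± 0.24, adjusted p 0.0571). TMEM241 had 20.3, 19.97 and 22.2 CPM against 11.4, 7.91 and 5.36 CPM (-1.35 ± 0.35, adjusted p 0.0686). Parental and resistant libraries did not overlap in these genes, and without CE-26 all 3 were called.

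SPIRE1, the most raised member of SUDHL6, went the other way in SUDHL16. It had 1.16, 5.17 and 1.37 CPM in parental and 0, 0.235 and 0 CPM in resistant libraries, so that its fitted log2 fold change of -4.78 ± 1.4 rests on very few counts (adjusted p 0.109 by edgeR). No member was called in both lines.

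Whether the lines changed differently was tested with an interaction term, the SUDHL16 change minus the SUDHL6 change, fitted over the 12 libraries together. The fit used 1 dispersion trend for both lines. The biological coefficient of variation, the spread between libraries, was 0.0516 in SUDHL6, 0.468 in SUDHL16 and 0.369 in this fit. The SE and adjusted p of the term thus reflect the spread of neither line. For ZNF532, NEDD4L and SPIRE1 its SE was smaller than in SUDHL16 alone. Over protein-coding genes at 5 CPM or more, this term was called above 0 in 6.87% and below 0 in 3.55%. Among the members it was called in 16, above 0 in 11 and below 0 in 5. Above 0 means a higher log2 fold change in SUDHL16 than in SUDHL6. These counts were unstable, with 3 to 4 and 3 to 4 when any one SUDHL6 library was left out and 18 and 17 without CE-26. The share of all coding genes called in those fits is not given, so they are no result about the members. The members were chosen for their SUDHL6 differences, which the interaction subtracts, so its split by arm largely restates that choice with the sign turned and is given as a description. All 11 lie on the long arm, and 4 of the 5 on the short arm, the exception being NEDD4L. The median interaction was -0.57 over short-arm members and 0.54 over long-arm members. The 6 members with the smallest adjusted p were ZNF532 (log2 difference 3.33 ± 0.29), B4GALT6 (2.04 ± 0.33), MYL12A (-1.56 ± 0.28), NEDD4L (-2.49 ± 0.45), SPIRE1 (-5.98 ± 1.1, from very few SUDHL16 counts) and MBP (1.23 ± 0.23), with adjusted p from 3.57e-05 to 0.00751 by edgeR.

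B4GALT6 and MYL12A show what such a difference looks like in single libraries. B4GALT6 had 68.7, 47.5 and 62.4 CPM in parental and 74.8, 119 and 67.7 CPM in resistant SUDHL16 libraries, so the groups overlapped there, unlike in SUDHL6. MYL12A had 261, 199 and 252 CPM against 148, 202 and 127 CPM, again overlapping, with a log2 fold change of -0.58 in SUDHL16 beside 1.003 in SUDHL6. Kit and instrument differ between the lines and cannot be told apart from the line.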

How the data were processed

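RNA-sequencing reads were trimmed by the authors with Trim Galore, aligned to GRCh38 with HISAT2 and assembled with StringTie, and the deposited files hold raw counts per gene, without normalization. The counting tool, annotation and strand setting are not given in the sources used here, and 57 members overlap exons of another gene. Symbols, types and positions came from GENCODE release 44, which held 56558 of 60675 identifiers. SUDHL6 libraries were made with NEBNext Ultra II for HiSeq, SUDHL16 libraries with Illumina Stranded Total RNA and Ribo-Zero Plus for NovaSeq.

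Groups came from the labels. All 12 libraries were used, and none were identical. Each line was fitted alone with edgeR 4.0.16 in R 4.3.3 (filterByExpr, TMM, two-sided quasi-likelihood test, Benjamini-Hochberg adjustment over all genes tested, 16662 in SUDHL6 and 15708 in SUDHL16). The SE of a log2 fold change was derived from that test, as its absolute value over the square root of the F statistic. CPM of single libraries are on the TMM scale, while the 5 CPM rule uses library totals. Alternatives were DESeq2 1.42.0, upper-quartile scaling, unscaled totals, no filter, 1 and 10 CPM limits, a fit of all libraries and leaving out each library. The steps were tested on simulated data. The spread set there for SUDHL16 was smaller than in its real libraries (biological coefficient of variation 0.468). That test thus does not show how well changes are found in SUDHL16.

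The members, role lists and comparisons were chosen with earlier results of these data known. Named genes were the 8 most raised and 8 most lowered members, the 5 highest in CPM, role list members, those nearest 5 CPM, those within 1 Mb of BCL2, and the 6 with the smallest adjusted p in SUDHL16 and in the interaction. Members that went against their stretch, and those outside the list, were named after their values were seen. One member is not reported here by name. For NOL4 counts of 0 were given a floor of 3 counts, which covers counting error only. For SPIRE1 in SUDHL16 the fitted values are given without a floor.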

Additional observations from a re-analysis of the deposited data

Results flagged for a closer look

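The following 16 members were picked out because the change from parental to resistant cells differed between SUDHL6 and SUDHL16 in the interaction test of edgeR (adjusted p under 0.05 and at least 1.5-fold). That test used 1 dispersion trend for 2 lines of unlike spread, so its adjusted p reflects the spread of neither line. Values are the SUDHL16 log2 fold change minus that of SUDHL6. On the long arm it was 3.33 for ZNF532, 2.04 for B4GALT6, 1.48 for KLHL14, 1.23 for MBP, 1.15 for SLC39A6, 1.15 for IER3IP1, 1.06 for SMAD2, 1.03 for RBBP8, 1.01 for NFATC1, 1.002 for DYM, 0.67 for MEX3C and -2.49 for NEDD4L. On the short arm it was -5.98 for SPIRE1, -1.56 for MYL12A, -1.17 for NDC80 and -1.11 for MPPE1. That of SPIRE1 rests on 0, 0.235 and 0 CPM in resistant SUDHL16 libraries and ran from -9.98 to -5.24 over the fits, so its size is not determined. ZNF532, NEDD4L and MBP differed mainly through SUDHL16, where they had 3.0001, -2.76 and 0.97 beside -0.26, -0.17 and -0.22 in SUDHL6. All 16 remained called without CE-26, the SUDHL16 library that stands apart, whereas without any one SUDHL6 library 3 to 4 members were called higher and 3 to 4 lower. Over the 17 fits tried, ZNF532, B4GALT6, SPIRE1, NEDD4L and MBP were called in each, whereas NDC80 and MEX3C were called in 4, NFATC1 in 6 and RBBP8, SLC39A6 and IER3IP1 in 7. Kit and instrument cannot be told apart from the line.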

How the results depend on the processing

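Counts of members called under the alternatives below lack the share of all coding genes called in the same fit. They show how the calls moved and are no result about the members. In SUDHL6 the arm medians were 0.61 and -0.38 with upper-quartile scaling, and the median of all members was then -0.25. Leaving out each library gave 0.58 to 0.61, -0.41 to -0.40 and -0.28 to -0.25, with 15 to 18 members called higher and 26 to 27 lower. Fitting both lines together, with 1 spread for all 12 libraries, called 2 higher and 7 lower. The 60 members without exon overlap, an alternative chosen after seeing the data, held 6 higher and 9 lower, with a long-arm median of -0.32. Every short-arm member had a log2 fold change above 0 in all fits except those without CE-8, CE-10 or CE-12, in each of which 30 of 31 did.

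In SUDHL16 DESeq2 called 3 higher and 5 lower, upper-quartile scaling 2 higher, a single fit of all libraries 5 higher and 5 lower, the 1 CPM limit 3 lower and the 10 CPM limit 0 lower. Leaving out each library gave 1 to 4 higher and 0 to 3 lower, with medians from -0.08 to 0.14. Without CE-26 there were 4 and 3, and without CE-28, CE-29 or CE-30 NEDD4L was not called.

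For the interaction DESeq2 called 25 higher and 17 lower, upper-quartile scaling 10 lower, no filter 3 higher and 2 lower, unscaled totals 7 higher, the 1 CPM limit 9 lower and the 10 CPM limit 3 lower. Leaving out each library gave 3 to 18 higher and 3 to 17 lower, with medians from 0.26 to 0.47. Without CE-26 there were 18 and 17, without any one SUDHL6 library 3 to 4 higher, and without CE-29 7 higher. Whether calls over all coding genes moved alike is not given, and the cause of these moves was not tested. Upper-quartile scaling shifted the median of all coding genes by under 0.1 in SUDHL6 and by more in the interaction (from 0.08 to -0.06). No paired analysis was possible because the labels give no replicate numbers. Depth and spread limit SUDHL16, where CE-26 had 4131927 counts.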
